A study of Mus musculus with 18 samples.

Results

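The MHC class I antigen presentation pathway was followed through 10 genes, chosen by symbol from a list of the pathway's heavy chains, light chain, peptide transporter, loading factor, immunoproteasome subunits and transcriptional activator. That choice was made with earlier results of these data known. All 10 were found among the 49585 gene rows of the kidney RNA sequencing table, and all 10 passed a filter of a mean normalized value above 10, as did 16984 rows in all. The study compared *Lin28A* OE mice, of genotype Lox-stop-Lox-TetOn-Lin28A; Six2Cre, with control mice of genotype Lox-stop-Lox-TetOn-Lin28A, which carry the inducible allele but no Cre. Both genotypes drank doxycycline (Dox, 1 g/L) for 1, 2 or 5 weeks, and 3 libraries were made from each of the 6 groups. Six2-Cre removes the stop cassette in nephron progenitors and their descendants, so induction was directed to the nephrons, whereas RNA came from whole kidney. The animals' age and strain are not given in the sources used here, and neither is whether each library came from a separate animal. The p-values therefore measure the spread between these libraries, part of which may be technical.

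Class I molecules display peptides from inside the cell to CD8+ T cells. The proteasome cuts proteins into peptides, the TAP transporter moves them into the endoplasmic reticulum, and tapasin helps load them onto a heavy chain paired with beta-2 microglobulin. Interferons and NF-kB signalling raise transcription of these genes in many cell types, tubule cells included. NLRC5 is an activator that acts at the shared promoter module of class I genes.

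Libraries held 21176911 to 28686369 reads (median 25777438). Values are reads per gene divided by each library's size factor, called normalized reads below. *Lin28a* itself measured 41737, 68744 and 56496 normalized reads in the OE kidneys of 1 week, 116461, 71764 and 52622 in those of 2 weeks, and 615, 600 and 420 in those of 5 weeks, against 14.4 to 28.5 over the 9 control kidneys. The induced gene thus separated every OE library from every control library, and its level at 5 weeks was far below that at 1 and 2 weeks. Its row does not tell the transgene from the endogenous gene. *Xist* was above 100 normalized reads in 6 of the 18 libraries and *Ddx3y* in the other 12. The *Xist* libraries numbered 1, 2 and 1 of 3 in OE kidneys after 1, 2 and 5 weeks, against 0, 1 and 1 of 3 in control kidneys, so the sexes were unequal between the groups at 1 and 2 weeks. With *Xist* as a covariate no call of the 10 genes changed.

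Of the 10 genes, 7 lie on chromosome 17 of GRCm38 between positions 33915899 and 35267499, within the mouse MHC. *Psmb9*, *Tap1*, *Psmb8* and *Tap2* form a cluster of 34335 bases there. *B2m* lies on chromosome 2 from 122147686 to 122153083, and *Psmb10* and *Nlrc5* lie on chromosome 8 from 105935735 to 105938444 and from 94434356 to 94527272. *Tap1* and *Psmb9* overlap by 212 bases on opposite strands, and the use of strand in counting is not stated, so reads from those bases cannot be assigned to one of them. Annotated genes outside the list overlap *B2m*, *Tap2*, *Tapbp*, *Psmb8*, *Psmb10* and *Nlrc5*. Those on the same strand include *Zbtb22* at *Tapbp* and *Mir7072* at *Nlrc5*. The effect of these overlaps on the counts was not tested.

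RefSeq promoters of GRCm38.p6 matched 8 of the 10 genes. The stretches below show the motif matches of the heavy chain and light chain genes, and the only STAT element found, in *Psmb8*. A link between these motifs and the expression of the genes was not tested. The 250 bases before each start were searched on both strands for the NF-kB consensus, the interferon-stimulated response element core (GAAA and GAAA with 2 free bases between them), its 1-base-shorter form GAANNGAAA, the STAT element TTCNNNGAA, TGACG and CCAAT, and capitals mark every match. Adjacent capitals in the H2 promoters are overlapping NF-kB matches.
H2-K1: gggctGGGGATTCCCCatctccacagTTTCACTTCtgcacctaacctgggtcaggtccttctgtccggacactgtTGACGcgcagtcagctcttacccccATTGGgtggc
H2-D1: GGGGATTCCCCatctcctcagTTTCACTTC
B2m: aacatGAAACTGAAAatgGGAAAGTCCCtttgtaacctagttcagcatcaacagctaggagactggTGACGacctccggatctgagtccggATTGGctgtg
Psmb8: cgctgTTCCCAGAAgatgc

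The *H2-K1* stretch is the minus strand of chr17:34000354-34000463, ending 7 bases before the RefSeq start. The *H2-D1* stretch is the plus strand of chr17:35262923-35262952, the *B2m* stretch the plus strand of chr2:122147543-122147643 and the *Psmb8* stretch the plus strand of chr17:34198093-34198111. The *H2-D1* and *Psmb8* stretches overlap an annotated exon and were kept short for that reason. Which transcript that exon belongs to was not checked. Set against each other without gaps from the NF-kB match onward, the *H2-K1* and *H2-D1* promoters had 89 of 100 bases in common.

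The NF-kB consensus was found upstream of *H2-K1*, *H2-D1* and *B2m*, and of 8.23% of 27025 genes with a promoter. The interferon-stimulated response element core was found in *B2m* alone among the 8 genes (3.46% of all), GAANNGAAA in *H2-K1* and *H2-D1* (7.30% of all) and TTCNNNGAA in *Psmb8* alone (8.13% of all). TGACG was present in 5 of the 8, *H2-K1*, *H2-D1*, *B2m*, *Tap1* and *Psmb9* (19.8% of all), and CCAAT in the same 5 and *Tapbp* (37.5% of all). *Tap1* and *Psmb9* are transcribed away from each other from starts 225 bases apart and share the same TGACG and CCAAT letters. A match describes the letters only and does not show that a factor was bound.

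After 1 and after 2 weeks of Dox all 10 genes were higher in OE than in control kidneys, and after 5 weeks *Tap1* and *Nlrc5* were the 2 that still passed (adjusted p under 0.05, limma with Benjamini-Hochberg adjustment over 16984 genes). Among all genes tested, 18.7%, 28.9% and 7.67% were higher after 1, 2 and 5 weeks and 15.6%, 28.8% and 7.9% were lower. The same shares belong beside the counts of every other list below. Because the 10 genes and the lists were chosen with earlier results of these data known, the shares describe them and do not test them. With a log2 fold change past 1 also required, 8, 10 and 1 of the 10 genes were called, against 8.21%, 14.8% and 4.82% of all genes. The median log2 fold change of the 10 was 1.28, 1.99 and 0.52 at 1, 2 and 5 weeks, beside -0.02, 0.01 and 0.02 over all genes. The lowest OE library exceeded the highest control library for 9 genes after 1 week (25.4% of all genes), 10 after 2 weeks (31.0%) and 5 after 5 weeks (17.3%). At both 1 and 2 weeks the activator *Nlrc5*, the transporter subunit *Tap1* and the proteasome subunit *Psmb8* had the highest fold changes of the list, and *Tap2* and *B2m* the lowest. The plot of normalized reads by library shows all 10.

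**Figure D1:**
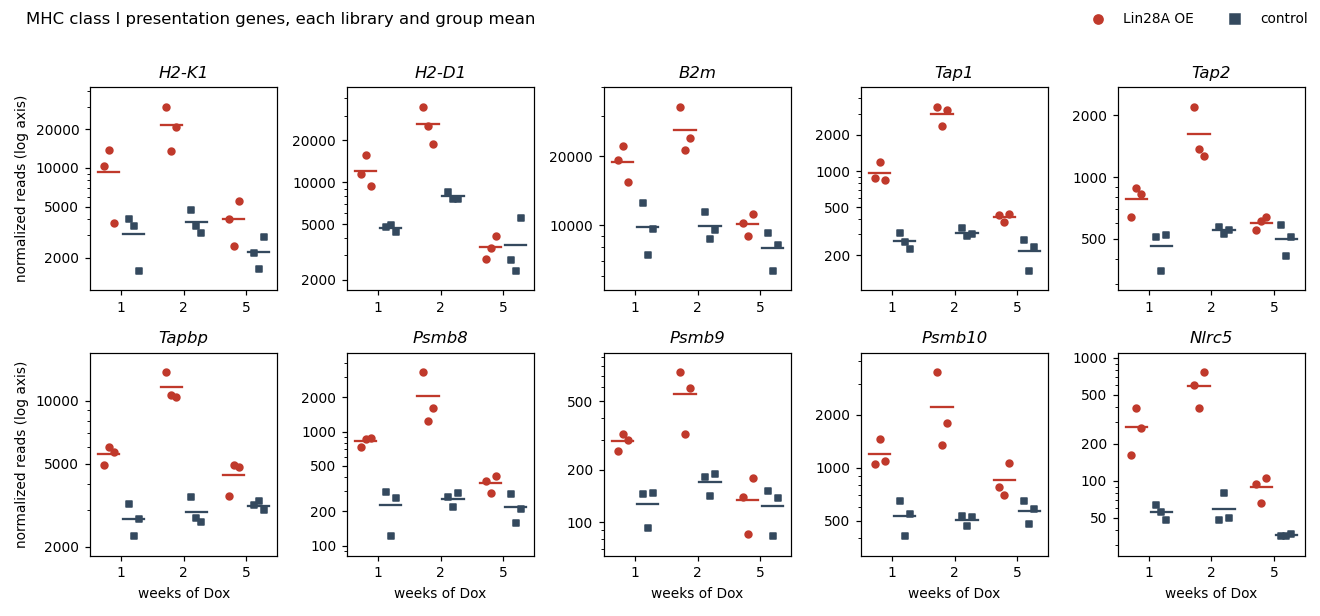
Normalized reads (log axis) of the 10 genes in each library after 1, 2 and 5 weeks of Dox, with *Lin28A* OE kidneys as circles left of control kidneys as squares and a line at each group mean of 3 libraries. At 2 weeks every circle lies above every square in all 10 panels, and at 5 weeks this holds in 5 panels.

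Leukocyte genes moved alongside. *Ptprc*, which encodes the general leukocyte antigen CD45, measured 842, 855 and 1015 normalized reads in OE kidneys at 1 week, against 388, 320 and 449 in controls. At 2 weeks it measured 1073, 778 and 1149 against 425, 306 and 335, and at 5 weeks 569, 467 and 628 against 285, 263 and 370. Each of the 12 listed macrophage and monocyte markers was higher after 1 week and after 2 weeks, and 10 of them after 5 weeks. Their summed level ranged from 20099 to 23044 in OE kidneys against 3284 to 4612 in controls at 1 week, from 18996 to 47314 against 3449 to 4312 at 2 weeks, and from 10822 to 18454 against 3095 to 4126 at 5 weeks. The largest changes were those of *Itgam*, an integrin of myeloid cells (3.28, 4.67 and 2.71 on the log2 scale after 1, 2 and 5 weeks; adjusted p = 8.04e-06, 3.32e-08 and 2.66e-04 from limma), and *Lyz2*, which encodes lysozyme (3.63, 4.57 and 2.86). The complement genes *C1qa* and *C1qc* rose by 2.62 and 2.60 at 1 week. No gene of that list was without reads in any group. In whole-kidney RNA, more or fewer cells of a type and more or less RNA per cell cannot be told apart, and the part of these cells in the class I levels was not tested.

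The class I heavy chains *H2-K1* and *H2-D1* encode the polymorphic chains that hold the peptide. *H2-K1* measured 10380, 13693 and 3725 normalized reads in OE kidneys at 1 week, against 3997, 3547 and 1594 in controls. The lowest OE library, replicate 3, lay within the control range. At 2 weeks the OE libraries held 29930, 13546 and 20914 against 4737, 3559 and 3150, with no overlap. At 5 weeks they held 3989, 2499 and 5577 against 2172, 1650 and 2903, and the groups overlapped. The log2 fold change was 1.52 (SE 0.45, adjusted p = 0.0160 from limma) at 1 week, 2.44 (SE 0.45, adjusted p = 2.14e-04) at 2 weeks and 0.81 (SE 0.45, adjusted p = 0.248) at 5 weeks. The 1-week call was lost without OE replicate 1 (1.34), OE replicate 2 (1.14) or control replicate 3 (1.10).

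*H2-D1* measured 11411, 15685 and 9335 normalized reads in OE kidneys at 1 week against 4742, 4953 and 4401 in controls, and 34841, 25361 and 18848 at 2 weeks against 8514, 7643 and 7637. The groups were apart at both times. At 5 weeks OE kidneys held 2801, 3366 and 4095 against 2780, 2324 and 5539 in controls, where control replicate 3 was the highest of the 6. *H2-D1* changed by 1.34 on the log2 scale (SE 0.28, adjusted p = 0.00145 from limma), 1.69 (SE 0.28, adjusted p = 6.74e-05) after 1 and 2 weeks, and the 5-week value was 0.036 (SE 0.28, adjusted p = 0.950). The 95% interval at 5 weeks ran from -0.55 to 0.62, and the sign of this value changed with edgeR, DESeq2 and 3 left-out libraries.

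The ratio of *H2-K1* to *H2-D1* reads varied between libraries of one group. It was 0.910, 0.873 and 0.399 in OE kidneys at 1 week against 0.843, 0.716 and 0.362 in controls. At 2 weeks it was 0.859, 0.534 and 1.11 against 0.556, 0.466 and 0.412, and at 5 weeks 1.42, 0.742 and 1.36 against 0.781, 0.710 and 0.524. *Gm8909*, a class I-like row on the same chromosome from 36164443 to 36168537 that was chosen after its values were seen, lay between 2.13 and 10.03 normalized reads in 9 libraries and between 114 and 942 in the other 9. After 1, 2 and 5 weeks it was under 20 in 1, 1 and 3 of 3 OE libraries, against 2, 0 and 2 of 3 control libraries. These genes are close paralogs that differ between strains, reads were mapped to 1 reference genome, and the part of this in the heavy chain values was not tested.

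**Figure D2:**
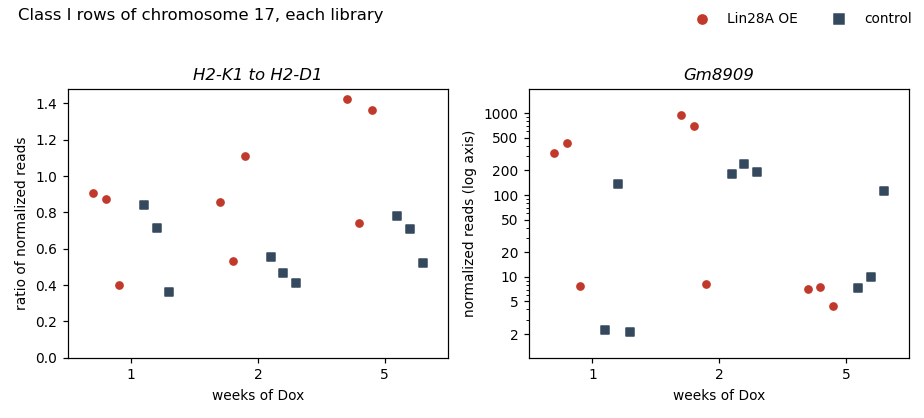
Ratio of *H2-K1* to *H2-D1* normalized reads (left, axis from 0) and *Gm8909* normalized reads (right, log axis) in each library after 1, 2 and 5 weeks of Dox, *Lin28A* OE as circles left of control as squares. *Gm8909* falls into libraries at 10.03 or below and libraries at 114 or above, and both genotypes hold libraries of each kind.

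*B2m* encodes beta-2 microglobulin, the invariant light chain of every class I molecule. It measured 19314, 22120 and 15403 normalized reads in OE kidneys at 1 week against 12456, 7418 and 9614 in controls, and 32854, 21274 and 24092 at 2 weeks against 11454, 8722 and 9544. All OE libraries were above all controls at both times. At 5 weeks OE kidneys held 10242, 8932 and 11164 against 9261, 6333 and 8194, and the groups overlapped. Its log2 fold changes were 0.96 (SE 0.21, adjusted p = 0.00215 from limma), 1.38 (SE 0.21, adjusted p = 3.17e-05) and 0.36 (SE 0.21, adjusted p = 0.263). Per kilobase of annotated exon, *B2m* was the most abundant of the 10 in control kidneys, at 10723 ± 2199 normalized reads (SD, n = 9). *H2-D1* followed at 2091 ± 842 and *H2-K1* at 1033 ± 364, whose control ranges overlapped.

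The peptide transporter TAP is a dimer of TAP1 and TAP2. *Tap1* measured 882, 1192 and 842 normalized reads in OE kidneys at 1 week against 308, 260 and 226 in controls. It measured 3416, 2361 and 3183 at 2 weeks against 340, 288 and 301, and 434, 378 and 441 at 5 weeks against 268, 149 and 236. *Tap1* was thus above every control library at all 3 times. Its mean was 3.67, 9.65 and 1.92 times that of controls at 1, 2 and 5 weeks, and the log2 fold change was 1.87 (SE 0.21, adjusted p = 6.62e-06 from limma), 3.25 (SE 0.21, adjusted p = 5.01e-09) and 0.97 (SE 0.21, adjusted p = 0.00504).

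*Tap2* rose less. OE kidneys held 637, 886 and 824 normalized reads at 1 week against 508, 350 and 523 in controls, 2207, 1366 and 1274 at 2 weeks against 571, 528 and 555, and 550, 612 and 639 at 5 weeks against 583, 411 and 509. The groups overlapped only at 5 weeks. For *Tap2* the log2 fold change was 0.77 (SE 0.20, adjusted p = 0.00809 from limma), 1.51 (SE 0.20, adjusted p = 1.0e-05) and 0.27 (SE 0.20, adjusted p = 0.401). The difference in fold change between the TAP subunits was not tested.

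*Tapbp* encodes tapasin, which bridges TAP and the empty heavy chain. It measured 4898, 6003 and 5697 normalized reads in OE kidneys at 1 week against 3207, 2245 and 2712 in controls, and 13723, 10707 and 10403 at 2 weeks against 3445, 2733 and 2618. At 5 weeks it measured 3490, 4933 and 4797 against 3154, 3296 and 2978, and the lowest OE library stood just above the highest control. Tapasin's log2 fold change was 1.03 (SE 0.16, adjusted p = 1.67e-04 from limma), 1.98 (SE 0.16, adjusted p = 4.77e-08) and 0.47 (SE 0.16, adjusted p = 0.0604). The 5-week value missed the threshold, and passed it without OE replicate 1 (0.63, adjusted p = 0.0128), without OE replicate 1 of 2 weeks (adjusted p = 0.0443), with quantile normalization (0.57, adjusted p = 0.0273) and with DESeq2 (0.49, adjusted p = 0.0285).

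The immunoproteasome replaces the catalytic subunits PSMB5, PSMB6 and PSMB7 of the constitutive proteasome with PSMB8, PSMB9 and PSMB10. *Psmb8* measured 727, 854 and 884 normalized reads in OE kidneys at 1 week against 293, 121 and 261 in controls, 3319, 1229 and 1611 at 2 weeks against 266, 217 and 290, and 366, 289 and 408 at 5 weeks against 285, 159 and 211. The groups stood apart at each time, at 5 weeks only just. The log2 fold change was 1.96 (SE 0.34, adjusted p = 4.05e-04 from limma), 2.87 (SE 0.34, adjusted p = 2.59e-06) and 0.72 (SE 0.34, adjusted p = 0.171).

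*Psmb9* was the least abundant of the 3 subunits per kilobase of exon in control kidneys. It measured 258, 324 and 300 normalized reads in OE kidneys at 1 week against 145, 91.8 and 147 in controls, 736, 323 and 594 at 2 weeks against 182, 142 and 190, and 139, 85.1 and 180 at 5 weeks against 151, 82.9 and 138. The groups were apart at 1 and 2 weeks and overlapped at 5 weeks. The log2 fold change was 1.22 (SE 0.32, adjusted p = 0.00829 from limma), 1.61 (SE 0.32, adjusted p = 4.55e-04) and 0.10 (SE 0.32, adjusted p = 0.877), and the 5-week value changed sign under quantile normalization and without either of 2 libraries.

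*Psmb10* measured 1050, 1453 and 1090 normalized reads in OE kidneys at 1 week against 649, 409 and 545 in controls, 3479, 1339 and 1794 at 2 weeks against 529, 464 and 527, and 779, 703 and 1058 at 5 weeks against 647, 479 and 582. No OE library fell within the control range. Its log2 fold change was 1.17 (SE 0.27, adjusted p = 0.00334 from limma), 2.00 (SE 0.27, adjusted p = 1.0e-05) and 0.56 (SE 0.27, adjusted p = 0.181).

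The constitutive partners did not pass the test at any week. Their log2 fold changes at 1, 2 and 5 weeks were 0.20, 0.23 and 0.00 for *Psmb5*, -0.03, -0.17 and -0.16 for *Psmb6*, and -0.17, -0.27 and -0.25 for *Psmb7*. A ratio of partner genes within a library does not depend on the scaling of the library. *Psmb8* to *Psmb5* was 0.771 ± 0.0852 in OE kidneys against 0.239 ± 0.0859 in controls at 1 week, 1.72 ± 0.532 against 0.269 ± 0.0542 at 2 weeks and 0.423 ± 0.0473 against 0.262 ± 0.0743 at 5 weeks (SD, n = 3 each). These ratios are of reads and not per length. Per kilobase of exon, *Psmb8* averaged 607 ± 329 and *Psmb5* 1309 ± 437 normalized reads in OE kidneys at 2 weeks (SD, n = 3). The length joins the exons of all annotated transcripts, 3381 bases for *Psmb8* and 899 for *Psmb5*. It can exceed the length of the transcript present, so these values do not settle which of the 2 genes was more abundant.

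*Psmb10* to *Psmb7* was 0.569 ± 0.0722 in OE kidneys against 0.225 ± 0.0356 in controls at 1 week, 1.09 ± 0.394 against 0.217 ± 0.0399 at 2 weeks and 0.491 ± 0.0982 against 0.279 ± 0.0445 at 5 weeks. *Psmb9* to *Psmb6* was 0.0991 ± 0.00641 against 0.0418 ± 0.00593, 0.193 ± 0.0653 against 0.0540 ± 0.00587 and 0.0483 ± 0.0115 against 0.0407 ± 0.0110. In 8 of the 9 comparisons every OE library was above every control library, and each of these had an exact two-sided permutation p of 0.1, the smallest that 3 against 3 allow (0.1125 adjusted over 9 tests). The exception was *Psmb9* to *Psmb6* at 5 weeks (exact p = 0.5). No design of this size can pass a threshold of 0.05 by that test.

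**Figure D3:**
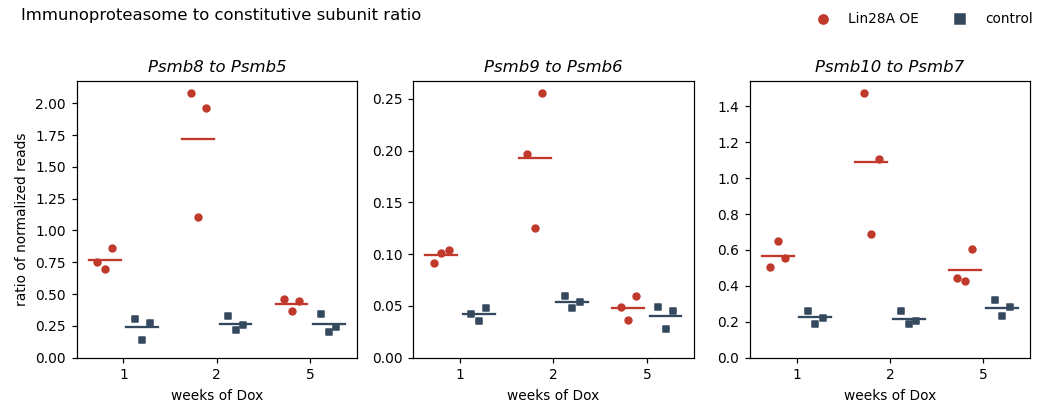
Ratio of normalized reads of each immunoproteasome gene to its constitutive partner in every library (axes from 0) after 1, 2 and 5 weeks of Dox, *Lin28A* OE as circles left of control as squares, with a line at each group mean of 3 libraries. The OE means of *Psmb8* to *Psmb5* are 0.771, 1.72 and 0.423, above control means of 0.239, 0.269 and 0.262.

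*Nlrc5* encodes the class I transactivator. It was the least abundant of the 10 per kilobase of exon, at 5.93 ± 1.72 normalized reads in control kidneys (SD, n = 9). It measured 163, 394 and 270 normalized reads in OE kidneys at 1 week against 63.5, 55.8 and 47.9 in controls, 605, 395 and 767 at 2 weeks against 47.8, 80.0 and 50.1, and 94.6, 66.4 and 105 at 5 weeks against 35.9, 35.5 and 36.8. No OE library fell within the control range at any week. Its mean was 4.95, 9.93 and 2.46 times that of controls, and the log2 fold change was 2.21 (SE 0.31, adjusted p = 7.10e-05 from limma), 3.28 (SE 0.31, adjusted p = 2.38e-07) and 1.25 (SE 0.31, adjusted p = 0.0135). Without OE replicate 3 the 5-week value was 1.11 and no longer passed (adjusted p = 0.0669).

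**Figure D4:**
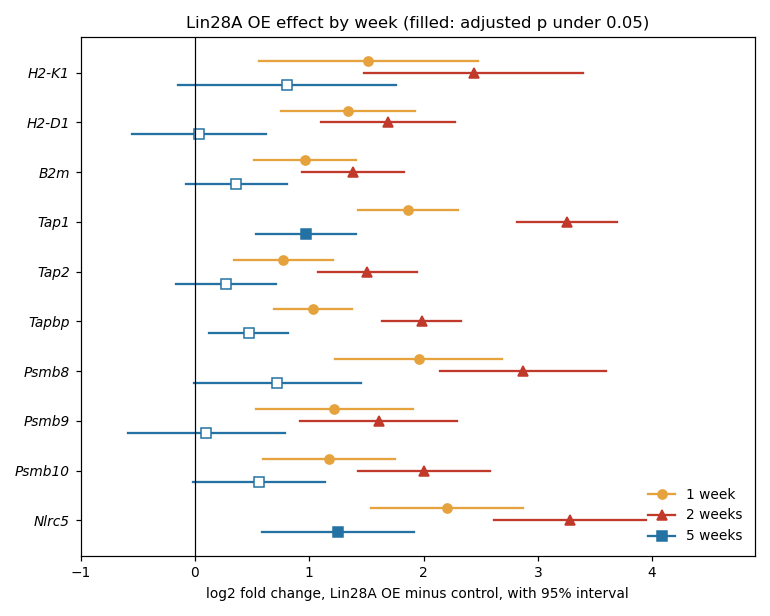
Log2 fold change of *Lin28A* OE over control with its 95% interval for the 10 genes at 1 week (circles), 2 weeks (triangles) and 5 weeks (squares), from 1 limma fit of 18 libraries, with filled symbols where the adjusted p was under 0.05. All 20 symbols of 1 and 2 weeks are filled, and at 5 weeks those of *Tap1* (0.97) and *Nlrc5* (1.25).

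The OE effect itself was compared between weeks by an interaction. From 1 to 2 weeks it grew for *Tap1* (by 1.39 on the log2 scale, SE 0.29, adjusted p = 0.00857 from limma) and *Tapbp* (by 0.95, SE 0.23, adjusted p = 0.0176), where 2.27% of all genes passed in this direction. Only *Tap1* also passed a log2 difference of 1 (1.36% of all genes). The other 8 genes also had a larger value at 2 weeks, with differences of 0.35 to 1.07 that did not pass. Without OE replicate 1 of 1 week, *Tapbp* no longer passed (0.87, adjusted p = 0.0573). From 2 to 5 weeks the effect became smaller for 9 of the 10 genes, against 14.4% of all genes, while 14.9% of all genes changed the other way. The differences ran from -2.28 for *Tap1* (SE 0.29, adjusted p = 4.86e-05) to -1.02 for *B2m* (SE 0.30, adjusted p = 0.0168). *H2-K1*, at -1.63 (SE 0.64, adjusted p = 0.0653), was the exception. It passed in 7 alternatives, with quantile normalization (adjusted p = 0.0341), with DESeq2 (adjusted p = 0.0212), with the compared groups fitted alone (adjusted p = 0.0238) and in 4 runs that each left out 1 library (OE or control replicate 3 of 1 week, OE replicate 2 of 2 weeks or OE replicate 3 of 5 weeks). The call of *Psmb9* (-1.51, adjusted p = 0.0209) was lost in 4 of 18 such runs, without OE replicate 1 or control replicate 2 of 2 weeks and without OE replicate 2 or control replicate 1 of 5 weeks.

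Between 5 weeks and 1 week limma called the effect different for 0 of the 10 genes (5.2% of all genes were lower and 1.79% higher). All 10 values were negative, from -1.30 for *H2-D1* to -0.50 for *Tap2*, and 6 had an unadjusted p under 0.05. On the recovered reads edgeR called 1 of them and DESeq2 called 2.

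In controls alone, limma called none of the 10 between any pair of weeks. The number with an unadjusted p under 0.05 was 1 for 2 against 1 week, 2 for 5 against 2 weeks and 0 for 5 against 1 week. Over all genes 0.0% were higher and 0.0177% lower at 2 than at 1 week, 0.0412% higher and 0.0471% lower at 5 than at 2 weeks, and 0.0% either way at 5 against 1 week. The nearest was *H2-D1*, lower at 5 than at 2 weeks by a log2 difference of -1.26 (SE 0.28, adjusted p = 0.0875). DESeq2 called 1 of the 10 in that comparison and edgeR 0, and neither called any in the other comparisons.

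The 10 genes rose and fell together across libraries. Over the 18 libraries the Pearson r of the 45 pairs, on log2 normalized reads, ran from 0.752 to 0.970 with a median of 0.907. *Tap1* was closest to the mean of the other 9 (r = 0.983) and *H2-D1* farthest (r = 0.872). These values describe points that share groups, libraries and the OE contrast, and they carry no test. Within groups, OE replicate 2 was the highest of its group for 9 of 10 genes at 1 week, OE replicate 1 for 9 at 2 weeks and OE replicate 3 for 9 at 5 weeks. At 1 and 2 weeks that library also had the highest *Lin28a* of its group, and at 5 weeks the lowest. The 2-week library held 18.7 normalized reads of *Xist*, against 10300 and 11344 in the others of its group. In controls, replicate 1 was the highest for 7, 7 and 6 of the 10 genes at 1, 2 and 5 weeks. A link of these ranks to *Lin28a* was not tested, and the ranks of all genes were not counted. For 6 of the 10 genes every 2-week OE library was above all 15 other libraries. The share of all genes with that order was not counted, so the count cannot show whether it is particular to the 10.

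The genes outside the list with the most similar profile, by Pearson r with the mean z score of the 10 over 18 libraries, were *Oas1a* (0.985), *Parp12* (0.984), *Herc6* (0.982), *H2-Q4* (0.98) and *Arpc2* (0.98). *Oas1a* averaged 454 ± 83.7, 1808 ± 894 and 76.9 ± 10.9 normalized reads in OE kidneys at 1, 2 and 5 weeks, against 46.8 ± 26.1, 58.6 ± 4.16 and 46.5 ± 17.2 in controls (SD, n = 3 each). *H2-Q4*, a nonclassical heavy chain, averaged 1527 ± 366, 3499 ± 514 and 665 ± 155 against 559 ± 128, 735 ± 44.4 and 496 ± 59.0.

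Other heavy chains that passed the test were all higher in OE kidneys. Of 14 listed, 13 passed the filter, and limma called 7 after 1 week, 9 after 2 weeks and 0 after 5 weeks, with none lower and medians of 0.79, 1.56 and 0.26. At 5 weeks 2 had a positive and 1 a negative difference at an unadjusted p under 0.05, and edgeR called 1 higher and DESeq2 2. *H2-T10* measured 63.8, 92.5 and 94.4 normalized reads in OE kidneys at 1 week against 41.2, 21.9 and 23.4 in controls, and 249, 203 and 170 at 2 weeks against 37.4, 33.3 and 30.8. *H2-T23* encodes the Qa-1 chain recognised by NKG2 receptors and was picked out after its values were seen. It measured 5654, 4105 and 4079 at 2 weeks against 1409, 1122 and 926 (log2 fold change 2.00, adjusted p = 8.09e-07 from limma). *H2-Q7* passed at 2 weeks only (2.24, adjusted p = 0.00961). *H2-M2* passed at 1 week only (adjusted p = 0.0260), with 22.8, 20.03 and 5.15 normalized reads against 1.11, 0 and 0, which came to 47 reads against 1, and it lost its call in 4 of the runs that left out 1 library.

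General folding and trimming factors of the endoplasmic reticulum and cytosol did not move as 1 group. Of 9 listed, limma called 1 higher and 2 lower after 1 week (18.7% and 15.6% of all genes). After 2 weeks it called 4 higher and 3 lower (28.9% and 28.8% of all genes). After 5 weeks it called 0, with 2 positive differences at an unadjusted p under 0.05. *Tapbpl*, which encodes the tapasin-related peptide editor TAPBPR, rose at 1 week (0.84, adjusted p = 0.00173 from limma) and 2 weeks (1.39, adjusted p = 5.45e-06). *Canx*, which encodes the chaperone calnexin, was lower at 2 weeks (-0.98, adjusted p = 2.94e-06) and at 1 week (-0.43, adjusted p = 0.0105), although quantile normalization turned the 1-week value to 0.049. *Lap3*, a cytosolic aminopeptidase, was lower at 1 week (-0.79, adjusted p = 0.0159) and 2 weeks (-1.63, adjusted p = 1.77e-05), and its 1-week call was lost without OE or control replicate 3. *Npepps*, another aminopeptidase, was higher at 2 weeks (0.56, adjusted p = 0.00160). *Pdia3*, the oxidoreductase of the loading complex, was lower at 2 weeks (-0.49, adjusted p = 0.0110), with 0.012 under quantile normalization.

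Among 9 proteasome activators and assembly factors, 3 were higher and 1 lower at 1 week (18.7% and 15.6% of all genes). At 2 weeks 3 were higher and 2 lower (28.9% and 28.8% of all genes). Counts this near the shares over all genes do not set the list apart. At 5 weeks limma called none, and none had an unadjusted p under 0.05. *Psme1* and *Psme2*, the subunits of the PA28 activator, rose by 0.52 (adjusted p = 0.0205 from limma) and 1.01 (adjusted p = 0.00178) at 1 week and by 0.83 (adjusted p = 3.51e-04) and 1.37 (adjusted p = 4.46e-05) at 2 weeks. The 1-week call of *Psme1* was lost without OE replicate 2, control replicate 2 or control replicate 3. *Psme4*, which encodes the PA200 activator, fell by 0.64 (adjusted p = 0.00250) and 0.94 (adjusted p = 3.15e-05), and *Psmg1*, an assembly chaperone, fell by 0.71 at 2 weeks (adjusted p = 0.00131). Of the 14 genes of the constitutive core, 2 were higher at 1 week, and 2 higher and 1 lower at 2 weeks, with medians of 0.01, -0.10 and 0.00 at 1, 2 and 5 weeks. These counts are below the same shares of all genes. *Psma5* (0.57 and 0.54) and *Psma6* (0.42 and 0.55) rose at 1 and 2 weeks, and *Psma4* fell at 2 weeks (-0.61, adjusted p = 0.00766). Both 1-week calls were lost without OE replicate 2 or control replicate 2, and the 2-week call of *Psma5* without OE replicate 1 or control replicate 1.

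Factors known to act on class I promoters were mostly higher, 11 of 14 at 1 week, 11 at 2 weeks (with 2 lower) and 4 at 5 weeks. *Stat2* measured 1863, 2791 and 1771 normalized reads in OE kidneys at 1 week against 604, 654 and 538 in controls, 5290, 4285 and 4812 at 2 weeks against 577, 766 and 624, and 766, 896 and 693 at 5 weeks against 677, 551 and 610. It is a subunit of the interferon-activated ISGF3 complex, and its groups stood apart at each week, with adjusted p from limma of 1.26e-06, 2.36e-09 and 0.165. *Irf9*, its DNA-binding partner, changed by 1.69, 2.27 and 0.71 on the log2 scale (adjusted p = 2.01e-06, 1.42e-08 and 0.00826). *Irf1*, an activator of class I genes, changed by 1.15, 1.93 and 0.88 (adjusted p = 4.28e-04, 6.42e-07 and 0.00827), and missed the threshold at 5 weeks without OE replicate 3 (0.73, adjusted p = 0.0526). The genes lower at 2 weeks were *Nfyc* (-0.53) and *Rfxank* (-0.52), which encode subunits of the NF-Y and RFX complexes, and *Rfxank* did not pass with the 2-week groups fitted alone (adjusted p = 0.0669).

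Interferon receptor and kinase genes were also measured. Of 10 listed genes 8 passed the filter, and 4, 6 and 2 of them were higher after 1, 2 and 5 weeks, with none lower. *Ifngr1* rose by 0.64, 1.52 and 1.11 on the log2 scale at 1, 2 and 5 weeks (adjusted p = 0.0193, 6.13e-06 and 0.00171 from limma). Its 1-week call was lost without OE replicate 3 or control replicate 2. *Ifngr2* rose by 1.24, 1.29 and 0.44 (adjusted p = 3.52e-06, 3.29e-07 and 0.0275), and *Jak2* by 0.74 at 2 weeks (adjusted p = 1.54e-05). The 5-week call of *Ifngr2* was lost without any one of the 5-week libraries except OE replicate 1 (adjusted p = 0.144 without OE replicate 3), without the filter on low values (adjusted p = 0.0534) and with the 5-week groups fitted alone (adjusted p = 0.0550). *Socs1*, a feedback inhibitor of interferon signalling, averaged 144 ± 47.6 normalized reads in OE kidneys at 2 weeks against 22.9 ± 3.73 in controls (SD, n = 3 each), and measured 43.2, 19.6 and 29.0 at 5 weeks against 32.8, 28.3 and 19.4. The groups overlapped at 5 weeks. The ligand genes *Ifng* and *Ifnb1* did not pass the filter.

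Class II presentation, which shows peptides from outside the cell and is restricted mainly to professional presenting cells, had another pattern of calls. Of 7 listed genes limma called 4 after 1 week, 3 after 2 weeks and 5 after 5 weeks, all higher, with medians of 1.11, 0.91 and 1.34. The controls were lower at 5 than at 2 weeks, by a median log2 difference of -0.94, beside -0.41 for the 10 class I genes. Of the 7, 4 were lower at an unadjusted p under 0.05 and 0 by adjusted p in limma. The median summed level of the 7 was 11226 and 11022 normalized reads in OE kidneys at 2 and 5 weeks, against 4985 and 2764 in controls. *H2-Ab1* measured 1837, 659 and 2041 normalized reads in OE kidneys at 5 weeks against 586, 314 and 409 in controls (log2 fold change 1.68, adjusted p = 0.0161 from limma), and *Ciita*, the class II transactivator, measured 109, 28.0 and 71.2 against 25.4, 20.1 and 24.6. The *Ciita* call was lost without any one of the 5-week libraries except OE replicate 2. *Cd74*, the invariant chain, rose by 1.11, 1.17 and 1.32 after 1, 2 and 5 weeks (adjusted p = 0.0375, 0.0177 and 0.0317), and *H2-Aa* by 1.30 at 5 weeks (adjusted p = 0.0410). Each of these calls was lost in 3 or 4 runs that left out 1 library. At 1 week the count was 2 without OE replicate 2, OE replicate 3 or control replicate 2, and at 2 weeks it was 1 without OE replicate 3, control replicate 2 or control replicate 3. The 5-week count was 2 without OE replicate 1 or control replicate 3, 0 without OE replicate 3 or control replicate 2 and 0 when the 5-week groups were fitted alone. No class II gene had an OE effect that differed between 2 and 5 weeks, either by adjusted p or at an unadjusted p under 0.05 in limma, whereas 9 of the 10 class I genes did by adjusted p. The difference between the lists was not tested.

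**Figure D5:**
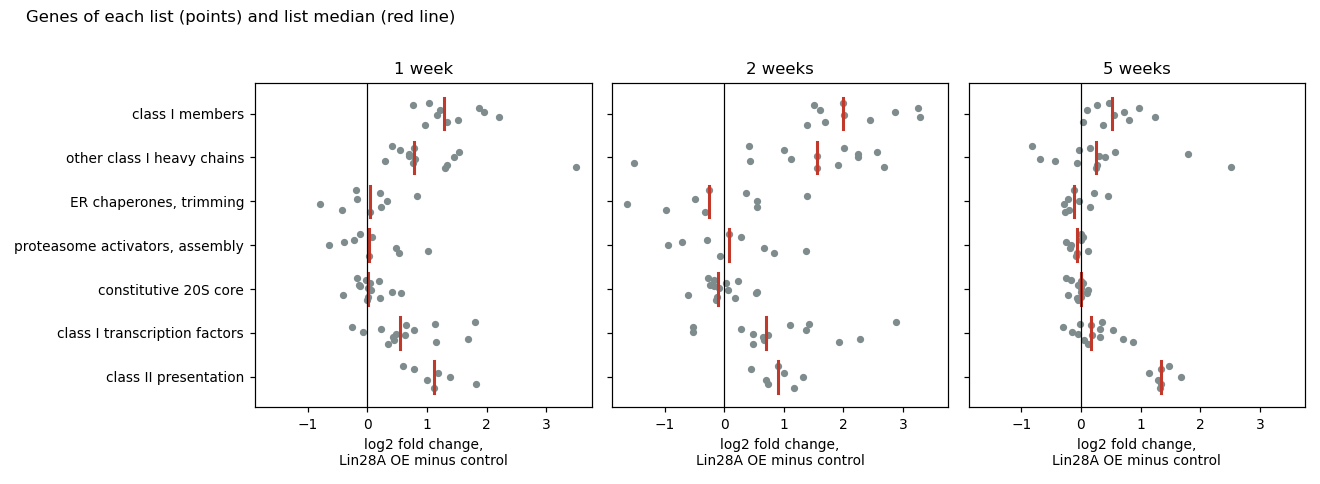
Log2 fold change of *Lin28A* OE over control for each tested gene of 7 lists (points) and the list median (red line) after 1, 2 and 5 weeks of Dox. The median of the 10 class I genes is 1.28, 1.99 and 0.52, that of the constitutive 20S core 0.01, -0.10 and 0.00, and that of class II presentation 1.11, 0.91 and 1.34.

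Other cell markers were read beside these lists. *Cd8a*, a gene of the T cells that read class I, did not pass at any week, with log2 fold changes of -0.49, -0.51 and -0.38. The other listed CD8 gene, *Cd8b1*, lay under the filter and went the other way. It had 58 reads in OE kidneys against 22 in controls at 1 week, 30 against 15 at 2 weeks and 13 against 6 at 5 weeks. These *Cd8b1* reads were not tested. *Gzmb*, a cytotoxic granule protease, passed at 1 week only (3.16, adjusted p = 0.0322 from limma). It did not pass with edgeR (adjusted p = 0.138) or DESeq2 (adjusted p = 0.175). *Cd4*, listed as a T cell marker, rose by 2.78 and 2.47 at 1 and 2 weeks (adjusted p = 0.00257 and 0.00270 from limma) and had 0.32 at 5 weeks (adjusted p = 0.778). The NK cell receptor genes *Klrk1* (2.17 and 2.46) and *Klrd1* (2.15 and 1.79) also rose at 1 and 2 weeks, although the *Klrd1* calls were each lost in 3 runs that left out 1 library. Of 9 T and NK cell markers that passed the filter limma called 6 higher after 1 week, 3 after 2 weeks and 0 after 5 weeks (2 at an unadjusted p under 0.05). The 1-week calls included *Cd3d* (1.92, adjusted p = 0.0396) and *Cd3g* (1.86, adjusted p = 0.0263), but not *Cd3e* (1.34, adjusted p = 0.147). The 3 calls at 2 weeks were *Cd4*, *Klrk1* and *Klrd1*, and *Cd3g* had 0.36 (adjusted p = 0.630). The 1-week count was 3 without OE replicate 2 and 2 without OE replicate 3 or control replicate 2.

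Of 5 tested dendritic cell markers, 3 were higher after 1 week, 2 after 2 weeks and 3 after 5 weeks. Not all members went this way. Positive values numbered 3, 3 and 4 of the 5 at 1, 2 and 5 weeks, and the lowest were -0.32, -0.60 and -0.05. *Flt3*, a growth factor receptor of dendritic cell precursors, rose by 1.83, 2.02 and 2.26, the integrin gene *Itgax* by 1.61, 1.80 and 1.29, and the chemokine receptor gene *Xcr1* by 2.36 at 1 week and 2.11 at 5 weeks. The 5-week count was 0 or 1 without any one of the 5-week libraries except OE replicate 2, and the 1-week call of *Flt3* was lost without OE replicate 2, OE replicate 3 or control replicate 3. Their summed level overlapped between OE and control kidneys at 1 week (686 to 852 against 606 to 745) and at 5 weeks (565 to 912 against 531 to 702), and did not at 2 weeks (561 to 763 against 470 to 545). Of 3 tested B cell markers limma called none after 1 or 5 weeks (0 also at an unadjusted p under 0.05) and none higher after 2 weeks (1 without control replicate 2), and *Ms4a1*, which encodes CD20, was lower at 2 weeks, with 0, 0 and 7.29 normalized reads in OE kidneys against 25.8, 17.8 and 18.2 in controls (adjusted p = 0.00346 from limma).

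Each of 6 tested neutrophil markers was higher after 1 week and after 2 weeks and 3 after 5 weeks. *Ly6g* lay under the filter and was not tested. It had 1, 27 and 8 reads over the 3 OE kidneys at 1, 2 and 5 weeks, against 0 in all controls. *S100a8* rose by 4.34 and 4.96 at 1 and 2 weeks. *Cxcr2*, a neutrophil chemokine receptor gene, rose by 3.07, 6.46 and 2.08, *Il1r2*, a decoy receptor gene, by 2.47, 5.37 and 2.16, and *Retnlg* by 1.99 and 4.99 at 1 and 2 weeks. The 5-week call of *Cxcr2* was lost with edgeR (adjusted p = 0.104), with quantile normalization (adjusted p = 0.0782) and with a pseudocount of 5 (adjusted p = 0.115). It was also lost without the filter, with the 5-week groups fitted alone and in several runs that left out 1 library. The 5-week count was 1 without OE replicate 3 or control replicate 2, and the 1-week call of *Retnlg* was lost without control replicate 3. Of 10 nephron markers 4, 9 and 8 were lower at 1, 2 and 5 weeks, and *Slc34a1*, the proximal tubule phosphate transporter, fell by 5.01 at 2 weeks (adjusted p = 5.33e-08). At the same week the endocytic receptor gene *Lrp2* (-4.56) and the glucose transporter gene *Slc5a2* (-4.02) also fell. The 5-week count was 5 without OE replicate 3. Of 7 endothelial markers 6, 7 and 6 were lower, and *Kdr* (-1.70), *Tek* (-1.48), *Cdh5* (-1.32) and *Emcn* (-0.80) fell at 2 weeks. The summed nephron markers ranged from 70026 to 99334 normalized reads in OE kidneys at 2 weeks against 402181 to 448762 in controls. The part of these marker changes in the class I levels was not tested.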

How the data were processed

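Kidney RNA from 18 mouse libraries in 6 groups of 3 was analysed. Poly(A) libraries had been aligned by the authors to mm10 (STAR). Their gene counts (HTSeq) were scaled with the size factors of DESeq2, tool versions are not given in the sources used here, and the deposited signal values are these scaled counts, called normalized reads. Every value was a whole number of reads times the library's factor within a tolerance of 0.001, and no 2 libraries of one group agreed within sampling noise.

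Genes with a mean above 10 were tested on log2(value + 1) with limma 3.58.1 (trend) in R 4.3.3, in 1 fit of 18 libraries with no covariate. Fold changes are on that scale, which understates those of low genes. A call is a Benjamini-Hochberg adjusted p under 0.05 over all genes tested. Because the values are normalized, edgeR 4.0.16 and DESeq2 1.42.0 were run on the recovered reads as alternatives, beside other pseudocounts, filters, scalings, an *Xist* covariate and leaving out each library. The fit was tested on simulated data in which few genes changed, all in a single group, with the same spread for every gene. Far more genes were called in these data, so that test does not show how the fit behaves on them. Coordinates and exon lengths are from GENCODE M21 (99.5% of identifiers matched), promoters from RefSeq GRCm38.p6. Exon length joins the exons of all annotated transcripts of a gene, and levels per kilobase depend on that choice.

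Genes named are the 10 members, from each other list the up to 4 called genes of largest change at any week and those called against most of their list, the constitutive partners, the 5 most similar profiles, and *Lin28a*, *Ptprc*, *Xist* and *Ddx3y*. *Cd8a*, *Cd8b1*, *Cd3d*, *Cd3e*, *Cd3g*, *H2-T23*, *Ifnb1*, *Ifng*, *Ly6g* and *Gm8909* were added after their values were seen. Some genes that the rule names are not reported here. Members and lists were chosen with earlier results of these data known.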

Additional observations from a re-analysis of the deposited data

Results flagged for a closer look

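The OE effect differed between weeks, by the interaction test in limma, for the following genes. From 1 to 2 weeks it was larger for *Tap1* (1.39, adjusted p = 0.00857) and *Tapbp* (0.95, adjusted p = 0.0176). From 2 to 5 weeks it was smaller for *Tap1* (-2.28, adjusted p = 4.86e-05), *Psmb8* (-2.15, adjusted p = 0.00354), *Nlrc5* (-2.03, adjusted p = 0.00281), *H2-D1* (-1.65, adjusted p = 0.00482), *Tapbp* (-1.51, adjusted p = 1.91e-04), *Psmb9* (-1.51, adjusted p = 0.0209), *Psmb10* (-1.44, adjusted p = 0.0103), *Tap2* (-1.23, adjusted p = 0.00455) and *B2m* (-1.02, adjusted p = 0.0168). *Lin28a* itself had a 2-to-5-week difference of -7.55 in the same fit.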

How the results depend on the processing

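Alternatives changed few calls at 1 and 2 weeks. The number of genes higher was 10 at 1 week (9 to 10 when 1 library was left out) and 10 at 2 weeks (10 to 10). At 5 weeks it was 2 (1 to 3 when 1 library was left out), 3 with quantile normalization, 3 with DESeq2, and 1 where a log2 fold change past 1 was also required. The number with a larger effect at 2 than at 1 week was 2 (1 to 2), and 1 with that fold limit. The number with a different effect at 5 than at 2 weeks was 9 (8 to 10), and 10 with quantile normalization, with DESeq2 and with the compared groups fitted alone. The number different between 5 weeks and 1 week was 0 (0 to 2 when 1 library was left out), 1 with quantile normalization, 1 with edgeR, 2 with DESeq2 and 1 with the replicate block, where *Psmb9* passed (adjusted p = 0.0480). Values that changed sign were those of *H2-D1* at 5 weeks (-0.048 with edgeR, -0.047 with DESeq2, -0.10 without OE replicate 3, -0.086 without control replicate 1, and -0.22 to 0.41 over all left-out libraries), *Psmb9* at 5 weeks (-0.055 with quantile normalization, -0.14 without OE replicate 3, and -0.17 to 0.39 over all left-out libraries), *Canx* at 1 week (0.049 with quantile normalization) and *Pdia3* at 2 weeks (0.012 with quantile normalization). The cause was not tested. Between control groups, DESeq2 called 1 of the 10 genes for 5 against 2 weeks where limma called 0. Same-numbered OE and control libraries of a week did not deviate together (r from -0.19 to 0.21, median 0.01, over 9 pairs), so the replicate block joins libraries that share only a number. The *Xist* covariate, the other pseudocounts and upper-quartile rescaling changed no call of the 10 genes. Groups of 3 limit what can be told apart at 5 weeks, where the 95% interval of *H2-K1* ran from -0.15 to 1.76.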

Other observations

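*Ifnb1*, which encodes interferon beta, lay under the filter on mean value and entered no comparison. It held 51.5, 47.2 and 21.9 normalized reads in the 3 OE kidneys at 2 weeks (138 reads in all) against 0, 1.11 and 0 in controls (1 read), 2.28, 4.77 and 0.858 in OE kidneys at 1 week (8 reads) against 0 reads in controls, and 0 reads in all 6 kidneys at 5 weeks. *Ifng* held at most 5.15 normalized reads in any library, with 10 reads over the 3 OE kidneys at 1 week against 3 in controls. These values were not tested.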
